A study of Mus musculus with 8 samples.

Results

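Genes of fatty acid oxidation and of the peroxisome were examined in the kidneys of control and cisplatin-treated mice. Members were chosen by gene symbol, from the families of the acyl-CoA dehydrogenases, oxidases, synthetases, thioesterases and thiolases, the carnitine acyltransferases, the enoyl-CoA hydratases and isomerases, the electron transfer flavoproteins, the 3-hydroxybutyrate dehydrogenases and the peroxins. Of 93 matching symbols in the count table, 45 lay in the 35880 rows that hold 1 value for each of the 8 libraries, and these 45 are the members described here. The other 48 lay in rows with 10 values, which could not be assigned to libraries and were not used. The mice were wild type, and the methods of the study describe them as male C57/BL6J. Controls received saline and the cisplatin group received cisplatin, a platinum chemotherapy drug that injures the kidney tubule, at 23 mg/kg. Both were given into the peritoneum and the kidneys were taken 72 h later. By their labels the controls are numbered 1, 2, 3 and 5 and the treated kidneys 1, 3, 4 and 6, and values are given in that order throughout. Each library is labelled as a kidney of its own, and the tissue was whole kidney with all its cell types.

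Fatty acids enter mitochondria as carnitine esters and are shortened there in a repeated spiral of oxidation, hydration, oxidation and thiolysis. Very long, branched and dicarboxylic chains are first shortened in peroxisomes, organelles that import their enzymes from the cytosol with the help of proteins called peroxins. The proximal tubule of the kidney relies on fatty acids for most of its energy and is rich in both organelles, and many of the genes concerned are targets of the nuclear receptor PPAR alpha.

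The rows used summed to between 10953338 and 16701599 counts per library, and 3 counts, used here as the limit of measurement, equalled 0.180 to 0.274 CPM, that is, counts divided by the library total and set to a common scale. All levels below are CPM after TMM normalization, a scaling that sets the typical gene equal between libraries. On that scale 3 counts equalled 0.136 CPM in cisplatin 1 to 0.266 CPM in control 1.  Control 5, cisplatin 4 and cisplatin 6 stood apart from the other 5 libraries on the second principal component of all genes, and these 3 are called the second library set and the other 5 the first. Although the mice were described as male, Kdm5d and Eif2s3y, both on the Y chromosome, had 0 to 3 counts in cisplatin 1 and cisplatin 3, against 274 to 1333 in the other 6 libraries, so results are also given without these 2. All 15 markers of the proximal tubule were lower after cisplatin, with a summed level of 57000 to 73800 CPM in the controls and 1140 to 13800 CPM in the cisplatin libraries. Of 8 markers of injured tubule, 7 were higher, from 620 to 775 CPM to 8840 to 15300 CPM. Of 8 markers of the loop, distal tubule and collecting duct, 4 were lower and 1 was higher, of 6 leukocyte markers 1 was lower and 3 were higher, of 4 red blood cell markers 3 were lower, and both fibroblast markers were higher, from 32 to 139 CPM to 208 to 983 CPM. Podocyte and endothelial markers summed to 342 to 691 and 452 to 653 CPM in the controls and to 375 to 587 and 253 to 596 CPM after cisplatin. No marker of these lists was at 0 in every library. Their part in the results below was not tested, and in whole kidney fewer cells of a type and less RNA per cell cannot be told apart.

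Most members fell after cisplatin. Of the 43 members that passed the filter on low counts, 26 fell, 1 rose and 16 were not called. The median log2 fold change was -1.33 against 0.08 over all 9141 genes tested. A gene was called when edgeR's quasi-likelihood test gave a Benjamini-Hochberg adjusted p under 0.05 and the log2 fold change was at least 1 in size. By this rule 15.7% of all genes tested were called lower and 19.2% higher. At an adjusted p under 0.05 with no minimum fold change, 32 members were lower and 2 higher, against 22.6% and 26.4% of all genes. In 32 of the 43 members every cisplatin library lay below every control, as was so for 22.5% of all genes, and in 2 members every cisplatin library lay above, against 23.7% of all genes. The summed level of the 43 members was 26710.0 to 29590.0 CPM in the controls and 4870.0 to 7979 CPM in the cisplatin libraries, on average 22.2% of control. A single gene, Acsm2, carried a large part of the control sum, and without it the figure was 30.3%. Acsbg2, an acyl-CoA synthetase with 1 count in all libraries, and Pex13-ps, a pseudogene of a peroxin with 0 counts, were not tested. The heatmap by library shows the members in their sets.

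**Figure D1:**
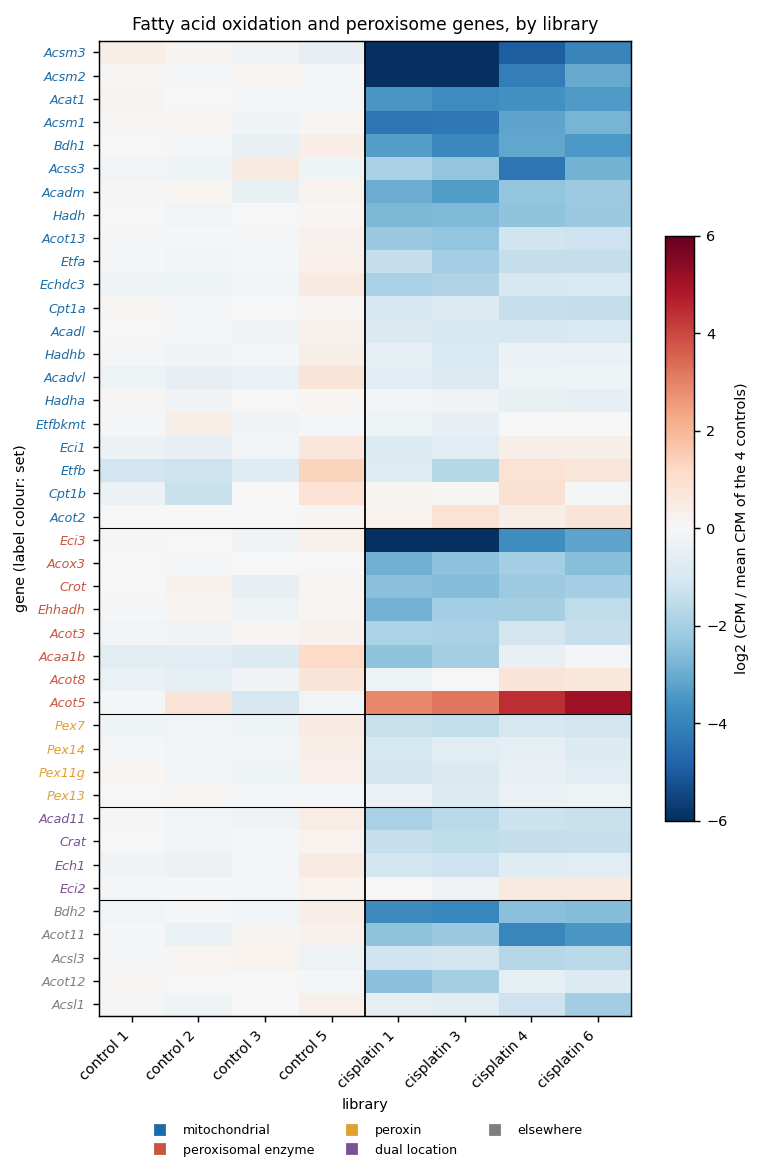
Each row is 1 of 42 tested members and each column a library, and the colour is the log2 ratio of its CPM to the mean of the 4 controls, with the lowest ratios of Acsm3, Acsm2 and Eci3 drawn at the end of the scale. The 4 cisplatin columns are blue for most members, Acot5 is red in all 4, and within the cisplatin columns Acsm3, Acsm2 and Eci3 are darkest in cisplatin 1 and 3.

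The 12 tested members of the mitochondrial core, which are the carnitine shuttle, the oxidation spiral and the electron transfer flavoprotein that takes up its electrons, changed unevenly. Of these, 4 fell and 8 were not called, with a median log2 fold change of -0.51. Cpt1a, the liver form of the outer membrane carnitine palmitoyltransferase and the regulated entry step, had 933, 817, 875 and 960.0 CPM in the controls and 448, 515, 345 and 337 CPM in the cisplatin libraries. The groups did not overlap, and Cpt1a fell by 1.12 on the log2 scale (SE 0.19, adjusted p = 0.000867). The call was lost with total library size (-0.55), in the first library set alone (-0.92) and with the replicate number as a block (-0.91), and when the change was tested against 1 on the log2 scale (adjusted p = 0.336). The muscle form, Cpt1b, was near the limit of measurement, with 0.885, 0.399, 1.14 and 2.20 CPM in the controls and 1.32, 1.21, 2.27 and 1.11 CPM after cisplatin. Its groups overlapped and its log2 fold change of 0.34 did not pass the test (adjusted p = 0.590).

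Among the 7 members of the spiral, 2 enzymes of medium and shorter chains fell and the 4 enzymes of long chains did not pass both thresholds. Acadm, the medium chain acyl-CoA dehydrogenase, had 1862, 1906, 1283 and 2042 CPM in the controls and 226, 176, 341 and 385 CPM in the cisplatin libraries. Its lowest control was above its highest cisplatin library, and it fell by 2.65 on the log2 scale (SE 0.29, adjusted p = 8.04e-05). Hadh, the 3-hydroxyacyl-CoA dehydrogenase for short and medium chains, went from 940.4, 816, 935 and 993 CPM to 144, 149, 174 and 198 CPM. Its cisplatin libraries lay close together and far below the controls, and it fell by 2.47 on the log2 scale (SE 0.17, adjusted p = 6.31e-06). Acadl, the long chain dehydrogenase, had 591, 554, 521 and 715 CPM in the controls and 324, 301, 304 and 319.5 CPM after cisplatin. These groups did not overlap either, but the log2 fold change of -0.93 (SE 0.15, adjusted p = 0.000875) was short of the fold threshold. Hadha, the alpha subunit of the trifunctional protein that carries out the later steps for long chains, had 428, 358, 406 and 446 CPM and 368, 351, 299 and 292 CPM. Control 2 lay below cisplatin 1, so the groups overlapped, and the value of -0.32 (SE 0.15, adjusted p = 0.105) did not pass the test. The adjusted p of Hadha was 0.0266 without cisplatin 1 and 3 (-0.46) and 0.0198 with DESeq2 (-0.36). The other 3 members of the spiral are named here after their values were seen. Hadhb, the beta subunit, was at -0.54 (adjusted p = 0.0325) and Acadvl, the very long chain dehydrogenase, at -0.47. Eci1, an isomerase for unsaturated chains, was at -0.09, and none of the 3 passed both thresholds. Acads, Echs1 and Acaa2 lay in rows not used, so these 7 members cover a part of the spiral. On levels per kilobase of gene model, Acadm was above Acadl in the controls (453 and 297 CPM per kb) and below it after cisplatin (72.1 and 156).

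The 3 members around the electron transfer flavoprotein differed from one another. Etfa, the alpha subunit, had 457, 434, 444 and 598 CPM in the controls and 177, 119, 178 and 182 CPM after cisplatin. All cisplatin libraries were below all controls, and it fell by 1.56 on the log2 scale (SE 0.19, adjusted p = 0.000159). Etfbkmt, which methylates the beta subunit, had 20.5, 28.2, 19.6 and 21.3 CPM and 18.1, 16.1, 22.4 and 22.4 CPM, with overlapping groups and a log2 fold change of -0.18 (adjusted p = 0.460). The beta subunit itself, Etfb, named after its values were seen, was ordered by library set. It had 12.4, 11.5, 16 and 69.6 CPM in the controls and 16.1, 8.41, 49.4 and 44.6 CPM in the cisplatin libraries, so that control 5, cisplatin 4 and cisplatin 6 were the 3 highest. Its log2 fold change was 0.11 (adjusted p = 0.911), and without control 5 it was 1.13 (adjusted p = 0.128). Etfb shares 13673 bases, nearly all of its span, with the annotated gene Gm45233 on the same strand, and reads of the 2 genes may not have been told apart.

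The acyl-CoA synthetases and thioesterases of the mitochondrial matrix included the largest changes. Of these 6 members 5 fell, with a median log2 fold change of -3.09 over the 6. The medium chain synthetases activate medium chain and aromatic acids, and 3 of them, Acsm2 (chr7:119554340-119600690), Acsm1 (chr7:119607026-119662515) and Acsm3 (chr7:119760923-119787513), lie near each other on the plus strand in GRCm38. Acsm2 had 9657, 8442, 9754 and 8376 CPM in the controls, and per kilobase it was the highest of all 43 members there (1220.0 CPM per kb). In the cisplatin libraries it had 129.7, 81.8, 512 and 1131 CPM, lowest in cisplatin 1 and 3 and highest in cisplatin 6. It fell by 4.29 on the log2 scale (SE 0.78, adjusted p = 0.00151), and per kilobase it stood at place 11 of 43 after cisplatin. Acsm3 had 1763, 1480.0, 1136 and 964 CPM in the controls and 1.77, 0.770, 42.8 and 85.96 CPM after cisplatin. It fell by 5.35 on the log2 scale (SE 1.27, adjusted p = 0.00644), further than any other member, and within the cisplatin group cisplatin 4 and 6 were on average 50.6 times as high as cisplatin 1 and 3. Without cisplatin 6 the log2 fold change was -6.48 for Acsm3 and -5.23 for Acsm2. It was -4.38 and -3.46 without cisplatin 1 and 3, and -10.18 and -6.52 in the first library set alone, so that the size of both falls depended on which cisplatin libraries were used. The transcripts of the 3 genes share 66.8% to 69.3% of their aligned bases. The other members that fell were Acsm1 (-3.49), the short chain synthetase Acss3 (-2.68) and the thioesterase Acot13 (-1.66). Acot2, a thioesterase, was the exception at 0.59 (adjusted p = 0.0187), with 46.9, 46.3, 46.1 and 50.3 CPM in the controls and 54.4, 87.9, 61.8 and 80.8 CPM after cisplatin. Every cisplatin library was above every control, but the change was under the fold threshold. Acot2 was named after its values were seen.

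Both tested members of mitochondrial ketone body metabolism fell. Acat1, the thiolase that joins and splits acetoacetyl-CoA, had 2096, 1895, 1789 and 1708 CPM in the controls and 169, 136, 151 and 178 CPM in the cisplatin libraries. The 4 cisplatin libraries differed little, Acat1 had the smallest adjusted p of the family, and it fell by 3.56 on the log2 scale (SE 0.18, adjusted p = 1.40e-06). Bdh1, which interconverts acetoacetate and 3-hydroxybutyrate, went from 322, 301, 233 and 423 CPM to 32.4, 21.9, 36.4 and 28.9 CPM. It fell by 3.42 on the log2 scale (SE 0.24, adjusted p = 6.31e-06) with no overlap of the groups. Echdc3, an enoyl-CoA hydratase domain protein, had 45.7, 45.1, 48.5 and 77.7 CPM in the controls and 14.2, 15.3, 28.04 and 28.9 CPM after cisplatin. Control 5 and, among the cisplatin libraries, 4 and 6 were the higher ones in each group, and Echdc3 fell by 1.33 on the log2 scale (SE 0.29, adjusted p = 0.00457), but its log2 fold change without cisplatin 1 and 3 was -0.92, under the fold threshold.

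Most genes of peroxisomal oxidation fell. Of the 5 members 4 fell and Acaa1b did not pass the test, with a median log2 fold change of -2.03. Acox3, the oxidase of branched chains, had 588, 551, 602 and 597 CPM in the controls and 79.1, 107, 144 and 99.4 CPM after cisplatin. The groups were far apart, and it fell by 2.44 on the log2 scale (SE 0.20, adjusted p = 1.55e-05). Ehhadh, the bifunctional hydratase and dehydrogenase of the peroxisome, had 1502, 1797, 1297 and 1727 CPM in the controls and 222, 384, 395 and 544 CPM in the cisplatin libraries. Its lowest value was in cisplatin 1, no cisplatin library reached the controls, and it fell by 2.03 on the log2 scale (SE 0.27, adjusted p = 0.000258). Eci3, a peroxisomal isomerase for unsaturated chains, had 288, 304, 269.8 and 383 CPM and 4.82, 3.35, 23.7 and 34.8 CPM. It fell by 4.23 on the log2 scale (SE 0.70, adjusted p = 0.000879), the largest fall among the peroxisomal enzymes, and its log2 fold change was -4.88 without cisplatin 6, -3.40 without cisplatin 1 and 3, and -6.18 in the first library set alone.

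Acaa1b, a peroxisomal 3-ketoacyl-CoA thiolase singled out after its values were seen, had 246, 248, 223 and 860.4 CPM in the controls and 73.6, 95.03, 288 and 381 CPM after cisplatin. Control 5 was by far the highest, and cisplatin 4 and 6 lay above the other 3 controls. Its log2 fold change was -0.91 (adjusted p = 0.240), and -0.21 without control 5. In the first library set alone it was called lower, at -1.56. The transcript of Acaa1b matches that of Acaa1a, a gene of the rows not used, in 96.6% of 1428 aligned bases, so the division of reads between them is uncertain.

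Of the 4 members that release products from the peroxisome, 2 fell and 1 rose. Crot, the carnitine octanoyltransferase that prepares shortened chains for the mitochondrion, had 891, 1040.0, 610.3 and 920.2 CPM in the controls and 153, 141, 192 and 207 CPM after cisplatin. The groups were far apart, and it fell by 2.32 on the log2 scale (SE 0.22, adjusted p = 3.52e-05). The thioesterase Acot3 fell as well, at -1.54, and the thioesterase Acot8 did not pass the test, at 0.36 (adjusted p = 0.413). Acot5, another thioesterase, was the only member called higher. It had 5 counts in the 4 controls together and 206 in the 4 cisplatin libraries, with levels of 0.0886, 0.239, 0 and 0.0786 CPM and 1.41, 1.71, 4.25 and 6.82 CPM. All 4 cisplatin libraries were above all controls, and cisplatin 4 and 6 were the higher ones. The ratio of summed counts, scaled for library size, was 30.8 with an exact 95% interval of 13 to 96 that covers counting error only. The fitted log2 fold change was 5.01 (SE 0.80, adjusted p = 0.000722), a value that depends on the prior count because the controls are close to 0, and it was 5.80 without control 2. Even after cisplatin Acot5 stayed low, at 2.33 CPM per kb, close to Acot3 at 2.21 CPM per kb.

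The peroxins had log2 fold changes between -1.21 and -0.43. All 4 tested members had every cisplatin library below every control, as in 22.5% of all genes. All 4 were also lower at an adjusted p under 0.05, as were 22.6% of all genes. Only Pex7 also passed the fold threshold, as did 15.7% of all genes. Without cisplatin 1 and 3, Pex11g (adjusted p = 0.0690) and Pex13 (adjusted p = 0.0783) were no longer under 0.05. With total library size the log2 fold changes were -0.65 for Pex7, -0.19 for Pex14 and for Pex11g, and 0.13 for Pex13. Pex7, the import receptor for proteins with an amino-terminal targeting signal, had 79.3, 84.9, 77.3 and 133 CPM in the controls and 37.1, 33.3, 47.7 and 43.7 CPM after cisplatin. Control 5 was the highest of the controls, and Pex7 fell by 1.21 on the log2 scale (SE 0.21, adjusted p = 0.00121). Pex14, of the docking complex at the peroxisomal membrane, had 45.5, 44.9, 45.2 and 64.3 CPM and 24.01, 32.7, 33.7 and 28.4 CPM. Its log2 fold change was -0.75 (SE 0.18, adjusted p = 0.00719). Pex11g, which takes part in elongation and division of the organelle, had 22.4, 18.6, 17.1 and 25.7 CPM in the controls and 9.60, 11.6, 15.4 and 13.6 CPM in the cisplatin libraries. Its log2 fold change was -0.74 (SE 0.21, adjusted p = 0.0163). Pex13, the other docking protein, was at -0.43 (adjusted p = 0.0392). The other 12 peroxins, among them the main import receptor Pex5 and the membrane assembly factors Pex3, Pex16 and Pex19, lay in rows that were not used, so these 4 describe a part of the import machinery.

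Of the 4 members placed in both organelles, 2 fell. Crat, the carnitine acetyltransferase, had 315, 275, 281 and 358 CPM in the controls and 118, 108, 116 and 118 CPM after cisplatin. The cisplatin libraries were almost equal, and it fell by 1.42 on the log2 scale (SE 0.14, adjusted p = 4.88e-05). Acad11, an acyl-CoA dehydrogenase, had 262, 250.1, 242 and 382 CPM and 74.3, 91.1, 115 and 114 CPM. It fell by 1.53 on the log2 scale (SE 0.21, adjusted p = 0.000309) with no overlap. Ech1, a dienoyl-CoA isomerase, was at -0.92 (adjusted p = 0.00961), short of the fold threshold, and Eci2 is described with its neighbour below. All 5 tested members placed elsewhere in the cell fell, and each had all cisplatin libraries below all controls, against 15.7% and 22.5% of all genes. Acsl1, the main long chain acyl-CoA synthetase of oxidative tissue, had 398, 367, 442 and 539 CPM in the controls and 295, 284, 182 and 104 CPM after cisplatin, so that here cisplatin 4 and 6 were the lower ones. It fell by 1.01 on the log2 scale (SE 0.31, adjusted p = 0.0209), a call that was lost without control 5, without cisplatin 4 and without cisplatin 6, with -0.78 in the last case. Acsl3, a long chain synthetase of lipid droplets and endoplasmic reticulum, had 55.7, 63.5, 66.2 and 46.9 CPM and 25.4, 26.2, 17.9 and 19.1 CPM. It fell by 1.39 on the log2 scale (SE 0.19, adjusted p = 0.000284). Bdh2, a cytosolic relative of Bdh1, had 292, 302, 292 and 440.0 CPM in the controls and 23.7, 22.2, 57.5 and 55.1 CPM after cisplatin. It fell by 3.07 on the log2 scale (SE 0.36, adjusted p = 0.000120). Acot11, an acyl-CoA thioesterase, had 63.5, 52.2, 76.7 and 82.2 CPM and 12.7, 14.7, 4.47 and 6.11 CPM. It fell by 2.84 on the log2 scale (SE 0.37, adjusted p = 0.000229), with the lowest levels in cisplatin 4 and 6. The cytosolic acetyl-CoA thioesterase Acot12 was at -1.27, and at -0.69 without cisplatin 1 and 3.

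**Figure D2:**
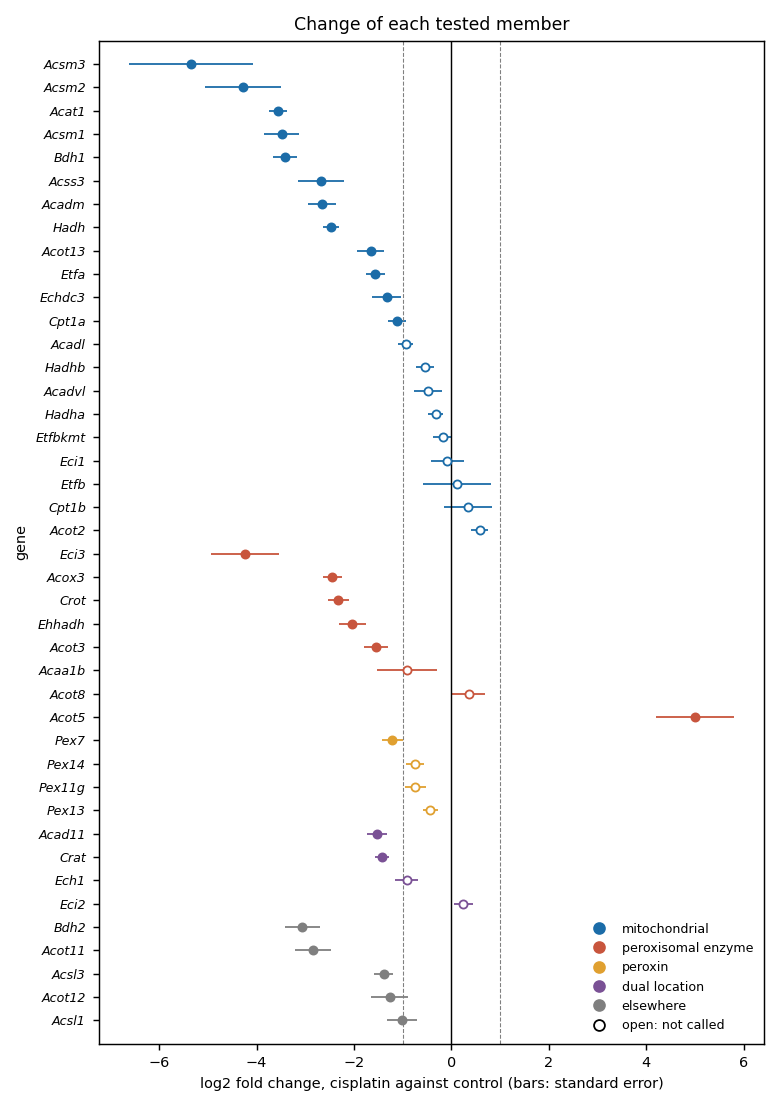
Points are the log2 fold changes of 42 of the 43 tested members, cisplatin against control, with standard errors from the edgeR fit, filled where the gene was called and coloured by set. Dashed lines mark a log2 fold change of -1 and 1. The mitochondrial points run from -5.35 to 0.59, the peroxisomal enzymes from -4.23 to 5.01, and the 4 peroxins lie between -1.21 and -0.43.

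Set against each other, 57.1% of the mitochondrial members and 66.7% of the peroxisomal enzymes fell. Of 21 mitochondrial members 12 fell and 9 were not called. At an adjusted p under 0.05 with no minimum fold change 14 were lower and 1 was higher, against 22.6% and 26.4% of all genes. Of 9 peroxisomal enzymes 6 fell and 1 rose, and with no minimum fold change 6 were again lower and 1 higher. Without that minimum, 14 of 21 and 6 of 9 were lower, so the shares of the 2 sets no longer differed. The medians were -1.33 and -1.54, a difference of -0.21. Taken in each cisplatin library against the control mean, the medians were -1.45, -1.82, -1.19 and -1.24 for the mitochondrial members. For the peroxisomal enzymes they were -2.42, -2.04, -1.08 and -1.37. The peroxisomal median was the lower one in cisplatin 1, 3 and 6 and the higher one in cisplatin 4. Over the 4 cisplatin libraries the difference had an SD of 0.46. This SD describes single libraries and is not the error of the fitted difference. For the peroxins it was 0.26, beside a difference of 0.58. The difference for the peroxisomal enzymes was -0.34 to -0.10 when each library was left out in turn and -0.01 without cisplatin 1 and 3. It was -0.09 with the members of both organelles counted as peroxisomal, and -0.46 with only genes of at least 10 counts in every library. It also depended on what was counted as mitochondrial. Against the 12 core members alone, without synthetases, thioesterases, Echdc3 and ketone body genes, the peroxisomal enzymes differed by -1.04 in the median, and the peroxins, which were 0.58 above the full mitochondrial set, differed from its core by -0.24. No test was run on these differences, since the genes of a set are not replicates. In summed CPM, which the most abundant genes dominate, the mitochondrial set stood at 15.9% of control after cisplatin, or 25.8% without Acsm2, its core at 37.6%, the peroxisomal enzymes at 30.1% and the peroxins at 57.0%. The mitochondrial core summed to 5714 ± 734 CPM in the controls and 2147 ± 144 CPM after cisplatin, and the peroxisomal enzymes to 6287 ± 669 and 1895 ± 700.5 CPM (mean ± SD, n = 4 in each case). Within the cisplatin group the mitochondrial core varied from 1964 to 2289 CPM between libraries, and the peroxisomal enzymes from 1114 in cisplatin 1 to 2636 in cisplatin 6.

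**Figure D3:**
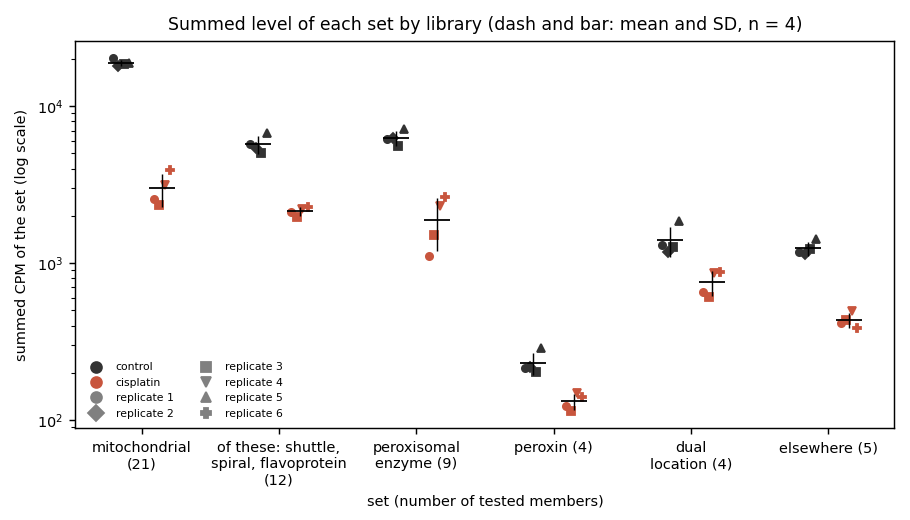
Each point is the summed CPM of a set in 1 library on a log axis, with the mean and SD of 4 libraries as a dash and a bar, controls in black and cisplatin in red. In every set the 4 cisplatin libraries lie below the 4 controls, and the sums after cisplatin differ most between libraries in the full mitochondrial set and the peroxisomal enzymes.

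Neighbouring genes of the same family gave different calls, although the difference between neighbours was not tested. In GRCm38 Eci2 (chr13:34977748-35027096) and Eci3 (chr13:34946614-34963810) lie 13937 bases apart on the minus strand, and their transcripts match in 89.1% of 991 aligned bases. Eci3 fell to an average of 5.36% of control, whereas Eci2 had 163, 161, 163 and 202 CPM in the controls and 174, 148, 249.6 and 247 CPM after cisplatin. The groups of Eci2 overlapped, with cisplatin 4 and 6 as its highest libraries, and its log2 fold change was 0.25 (SE 0.20, adjusted p = 0.323). The thioesterases Acot2 (chr12:83987861-83993873), Acot3 (chr12:84052144-84060402) and Acot5 (chr12:84069325-84076020) lie on the plus strand, Acot2 58270 bases before Acot3 and Acot3 8922 bases before Acot5. The transcripts of Acot3 and Acot5 match in 85.6% of 1274 aligned bases. Acot3 had 20.01, 19.1, 22.98 and 26.4 CPM in the controls and 5.96, 5.61, 10.4 and 8.48 CPM after cisplatin, and it fell by 1.54 on the log2 scale (SE 0.24, adjusted p = 0.000647), while Acot5 rose and Acot2 did not pass the fold threshold. Eci2 and Acot3 were named with their values after these were seen. Acot1, Acot4 and Acot6 of the same family lay in rows not used, and reads shared among such relatives may have been divided between them in a way the sources do not state. Hadha (chr5:30118304-30155162, minus) and Hadhb (chr5:30155248-30184593, plus), which encode the subunits of 1 enzyme, start 85 bases apart and stood at -0.32 and -0.54.

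**Figure D4:**
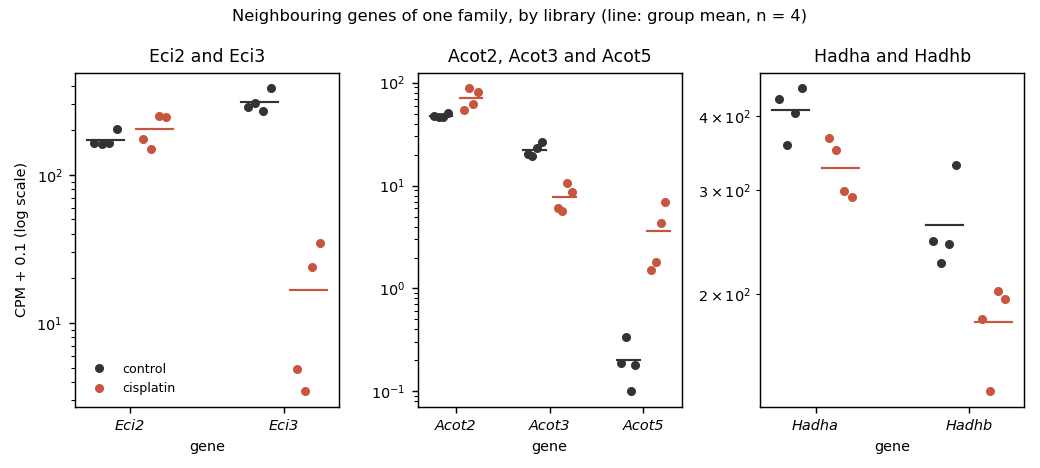
Points are the CPM plus 0.1 of each library on a log axis for Eci2 and Eci3, for Acot2, Acot3 and Acot5, and for Hadha and Hadhb, with a line at the mean of 4 libraries, controls in black and cisplatin in red. Eci3 and Acot3 lie lower after cisplatin, Acot5 lies higher, and the groups of Eci2 and of Hadha overlap.

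The promoters of the 2 pairs that parted are shown because in each a gene was called and its close relative gave another call. The windows run 5' to 3' along each gene's strand in GRCm38.p6, as RefSeq gives them, at chr13:34994095-34994394 (minus) for Eci2, chr13:34963760-34964059 (minus) for Eci3, chr12:84051894-84052193 (plus) for Acot3 and chr12:84069075-84069374 (plus) for Acot5. Capitals mark AGGTCA, the core letters bound by PPAR alpha, HNF4A and other nuclear receptors, or its reverse complement.
Eci2: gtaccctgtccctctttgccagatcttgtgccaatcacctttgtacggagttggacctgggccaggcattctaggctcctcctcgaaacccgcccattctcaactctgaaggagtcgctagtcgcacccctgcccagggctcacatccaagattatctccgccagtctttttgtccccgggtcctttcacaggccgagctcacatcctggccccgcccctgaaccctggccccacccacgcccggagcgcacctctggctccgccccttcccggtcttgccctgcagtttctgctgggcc
Eci3: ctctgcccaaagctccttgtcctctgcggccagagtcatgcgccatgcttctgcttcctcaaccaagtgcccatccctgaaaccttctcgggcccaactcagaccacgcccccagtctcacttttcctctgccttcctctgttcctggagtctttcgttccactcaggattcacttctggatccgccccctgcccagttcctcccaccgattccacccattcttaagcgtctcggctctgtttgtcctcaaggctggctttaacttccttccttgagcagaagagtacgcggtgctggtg
Acot3: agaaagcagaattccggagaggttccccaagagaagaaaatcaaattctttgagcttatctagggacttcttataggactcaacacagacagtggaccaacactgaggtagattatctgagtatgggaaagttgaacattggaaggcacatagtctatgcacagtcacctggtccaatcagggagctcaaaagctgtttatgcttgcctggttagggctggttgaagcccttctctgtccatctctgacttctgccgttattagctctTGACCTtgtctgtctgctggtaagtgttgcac
Acot5: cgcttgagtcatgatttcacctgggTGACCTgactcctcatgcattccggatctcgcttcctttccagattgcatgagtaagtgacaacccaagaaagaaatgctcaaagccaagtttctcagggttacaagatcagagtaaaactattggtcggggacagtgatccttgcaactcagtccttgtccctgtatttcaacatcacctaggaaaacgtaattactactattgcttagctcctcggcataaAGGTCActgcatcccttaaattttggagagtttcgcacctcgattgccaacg
In a gapped alignment of the 300-base windows, those of Eci2 and Eci3 match in 51.2% of the alignment columns, gaps included. Those of Acot3 and Acot5 match in 47.1%. The level for unrelated windows was not computed. The window of Eci2 starts from another start site than the gene model of the table, 32952 bases away. AGGTCA was found at no position of the Eci2 and Eci3 windows, in the Acot3 window at position 18 counted from the start site on the reverse strand, and in the Acot5 window at -225 on the reverse strand and at -2 on the forward strand. Of 37 members with a promoter in the table, 10 held AGGTCA on either strand (27.0%), against 5340 of 32851 promoters in all (16.3%). Among members called lower it was in 6 of 21 and among those not called in 3 of 15. The direct repeat AGGTCANAGGTCA was in 0 of the 37 and in 13 of all promoters. A match in these windows is a match of letters, and binding was not measured.

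Most calls were also made without the libraries in doubt. Without cisplatin 1 and 3, 23 members were called lower, all 23 among the 26, with 20.5% of all genes called lower in that fit, by set 11 mitochondrial members, 5 peroxisomal enzymes and 1 peroxin, and the 3 lost included Acot12 and Echdc3. In the first library set alone 26 were called lower, with 16.3% of all genes, of which 24 were shared, Acsl1 and Cpt1a being lost and Acaa1b and Ech1 gained. The second library set has 1 control and gives no test. Of the 43 members 37 were lower after cisplatin in both sets, and the share over all genes was not computed. All 26 called lower were among them. This had to be so, since in each of the 26 every cisplatin library lay below every control, and it adds nothing to the calls. In 28 of the 43 members both cisplatin 4 and 6 were above both cisplatin 1 and 3, as in 36.7% of all genes, and in 6 both were below, as in 36.2%. Control 5 was the highest control in 30 of the 43, and in 39.9% of all genes. In the cisplatin group the library set and the absence of Y-linked counts cannot be told apart. Scaling by the total count in place of TMM moved the median of all genes from 0.08 to 0.645 and that of the members from -1.33 to -0.78. Their distance was thus -1.41 and -1.42. With that scaling 15 members were called lower and 2 higher. The share of all genes called with it was not computed, so the smaller count is not read as a result about the members.

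Other genes of the pathway, from a list of 103 chosen with earlier results of these data known, were mostly lower as well. Of 58 tested, 32 fell, 7 rose and 19 were not called, with a median of -1.30. Over all genes tested 15.7% were called lower and 19.2% higher, and these shares apply to the counts by role below as well. Without cisplatin 1 and 3, 35 of the pathway genes were called lower, against 20.5% of all genes. All 3 genes of fatty acid uptake and binding fell, from the transporter Slc27a2, with 6332, 7514, 5630.0 and 7350.0 CPM in the controls and 273, 458, 942 and 749 CPM after cisplatin (-3.47), to the fatty acid binding protein Fabp3 (-1.36). Of 4 genes of carnitine supply and transport 2 fell, among them Aldh9a1 of carnitine synthesis (-2.38), while the carnitine carrier Slc25a20 did not pass the test (0.27). Oxct1, the enzyme that lets tissues use ketone bodies, fell (-3.36). Of 5 genes of propionyl-CoA and related routes 4 fell, led by Mut, the methylmalonyl-CoA mutase (-2.79), and Acsf2, an acyl-CoA synthetase, did not pass the test (-0.53).

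Of 24 genes outside the family that were listed as peroxisomal matrix and membrane proteins, 14 fell and 1 rose. Their median was -1.56, beside -1.54 for the peroxisomal enzymes and -0.75 for the peroxins of the family. Where the proteins of this list lie in the cell was not examined, and not all need be mainly peroxisomal. Catalase (Cat), which removes the hydrogen peroxide made by the oxidases, had 2611, 2736, 2545 and 2315 CPM in the controls and 229, 321, 449 and 521 CPM after cisplatin. It fell by 2.75 on the log2 scale (SE 0.27, adjusted p = 4.50e-05). The D-amino acid oxidase Dao had the largest fall (-4.37) and xanthine dehydrogenase (Xdh), listed here although it is largely cytosolic, rose (1.68). Of 5 omega-oxidation genes 4 fell, and the range ran from Cyp4a12a (-4.23) to Cyp4a10, a common PPAR alpha target that did not pass the test (-0.45, adjusted p = 0.199). The peroxisomal enzyme Hsd17b4 lay in a row not used.

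Among 10 transcription factors and coactivators 4 fell and 6 were not called. Ppara, the receptor itself, had 28.9, 28.3, 48.1 and 53.1 CPM in the controls and 17.4, 28.1, 31.5 and 13.2 CPM after cisplatin. The groups overlapped and its log2 fold change was -0.81 (SE 0.32, adjusted p = 0.0596). Ppargc1a, the coactivator of mitochondrial genes, had 168, 185, 219 and 122 CPM and 115, 82.3, 32.7 and 18.6 CPM. It fell by 1.48 on the log2 scale (SE 0.49, adjusted p = 0.0311), and cisplatin 4 and 6 were the lowest. Hnf4a, also 1 of the 15 proximal tubule markers, fell most (-3.18), and the highest value was that of Sirt1 (0.52, adjusted p = 0.0557). Sirt1 was at 0.7 without cisplatin 1 and 3 (adjusted p = 0.0124) and at 0.17 in the first library set alone (adjusted p = 0.483). A group of common PPAR alpha targets that lie outside oxidation went the other way, with 6 of 6 higher and a median of 2.99. Its range ran from Angptl4, an inhibitor of lipoprotein lipase (1.12, and 0.70 without cisplatin 1 and 3), to the lipid droplet protein Cidec (4.41). Cidec had 5.40, 1.12, 0.303 and 0.0786 CPM in the controls and 14.01, 11.6, 53.5 and 65.3 CPM after cisplatin, with control 1 the highest control. Pdk4, the kinase that restrains pyruvate dehydrogenase (3.03), and Plin2, the coat protein of lipid droplets (3.54), are named after their values were seen. Cidec is also an adipocyte marker. The 6 measured adipocyte markers summed to 0.455 to 34.4 CPM in the controls and 12.8 to 66.5 CPM after cisplatin. The fat hormone Adipoq was at 2.92 CPM in control 1, at most 0.0798 CPM in the other controls and 0.110 to 2.12 CPM after cisplatin, and its part in the rise of Cidec was not tested.

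**Figure D5:**
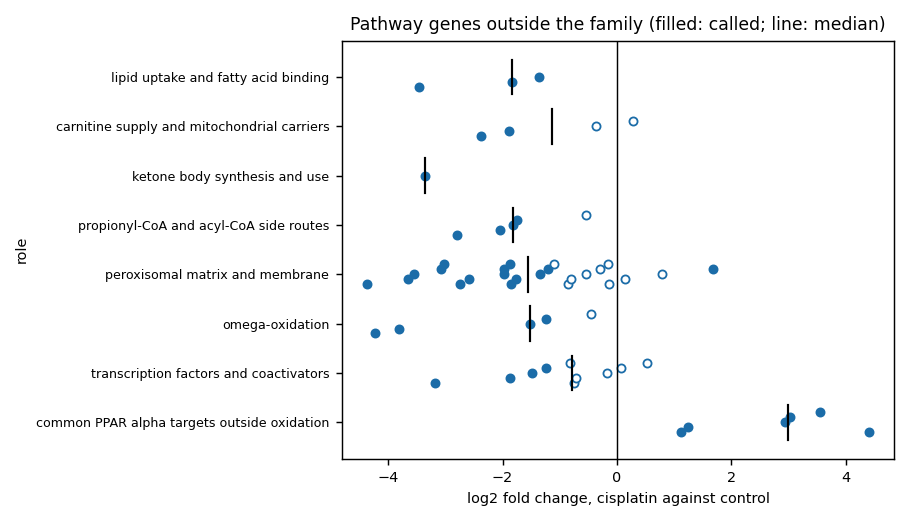
Each point is the log2 fold change, cisplatin against control, of a tested pathway gene outside the family, by role, filled where called, with a line at the median of the role. The roles of uptake, carriers, ketone bodies, side routes, peroxisome, omega-oxidation and transcription factors have medians from -3.36 to -0.78, and the PPAR alpha targets outside oxidation have a median of 2.99.

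Several members overlap another annotated gene, and the sources used here do not give the strand setting of the counting, so reads of the overlap may not have been told apart. Cpt1b lies inside AC137513.1 on the same strand and Acot3 shares 6470 bases with AC133183.1. Acad11 shares 12503 bases with Gm28305 and Acsl3 13475 bases with Utp14b, both on the same strand. On the opposite strand Acsm3 overlaps Eri2, Eci3 overlaps 4933417A18Rik, Echdc3 overlaps A230108P19Rik and Pex14 overlaps Gm17029. The 48 symbols not used include 17 with a mitochondrial, 5 with a peroxisomal enzyme and 12 with a peroxin role, among them Cpt2, the inner membrane partner of Cpt1a, so the counts by set cover the members in the rows used.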

How the data were processed

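RNA of whole kidneys was sequenced from 8 mice, 4 of them given cisplatin. The methods of the study name a GEXSCOPE library kit and the labels a VAHTS Universal V8 kit, and which was used is not settled here. Clean reads were aligned to GRCm38 with HISAT2, and the authors deposited raw counts per gene, without normalization. The counting tool and its strand setting are not given in the sources used here. The table lists 53715 rows, of which 17835 (33.2%) held 10 values for 8 named libraries and were not used, nor were the 2 unnamed extra columns of values.

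The test was run in edgeR 4.0.16 (R 4.3.3) with its default expression filter, TMM normalization, the quasi-likelihood fit and Benjamini-Hochberg adjustment over the 9141 genes tested. The study names DESeq2 for its own test, which was an alternative here (DESeq2 1.42.0). A call required an adjusted p under 0.05 and a change of at least 1 on the log2 scale in either direction, as in the study. The p-values measure the spread between these samples. No molecular identifiers are described, so the level of 3 counts and the interval of Acot5 cover counting error only. Libraries within a group differed by far more than sampling noise. The steps were tested on simulated counts.

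The members, the roles, the pathway list and the marker lists were chosen with earlier results of these data known. Values in every library are given for a fixed list (Cpt1a, Cpt2, Acadm, Acadl, Hadha, Ehhadh, Acaa1a, Pex5, Pex11a, Acsl1, Acsm3 where tested), every member called higher and the 2 largest changes of each role with a mean of at least 1 CPM. Some genes covered by these rules are not reported here by name, and the counts and sums include them. Listed pathway genes are those at the ends of each range, with Ppara, Ppargc1a, Cat, Slc27a2 and Hsd17b4. Promoters are RefSeq windows of GRCm38.p6. The alternatives were DESeq2, its size factors, no expression filter, a filter of 10 counts in each library, scaling by total library size, testing the fold change against 1 on the log2 scale, no minimum fold change, leaving out each library in turn, a block for the replicate number, the library set as a covariate, the first library set alone, fits without cisplatin 1 and 3, and other assignments of the sets.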

Additional observations from a re-analysis of the deposited data

Results flagged for a closer look

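The groups of 4 libraries examined were those of the control or of the cisplatin group for each of the 28 members that the naming rule covers. In 7 of these 56 groups a single library lay far from the other 3 by Dixon's criterion. Chance flags about 1 in 20 independent groups, but these groups come from the same libraries, so that rate is no yardstick for the 7. In 6 of the 7 groups the library was control 5 and it was the highest control. It had 382 CPM of Acad11, 440.0 CPM of Bdh2, 77.7 CPM of Echdc3, 598 CPM of Etfa, 64.3 CPM of Pex14 and 133 CPM of Pex7. Control 5 is the only control of the second library set. The other library was cisplatin 3, with 119 CPM of Etfa, the lowest of its group. Without control 5 the log2 fold changes were -1.36 for Acad11, -1.12 for Echdc3, -1.01 for Pex7 and -0.62 for Pex14, and without cisplatin 3 that of Etfa was -1.45.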

How the results depend on the processing

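The 26 members called lower were 26 with DESeq2 and with its size factors, 25 with no filter, 24 with at least 10 counts in every library, 20 when tested against 1 on the log2 scale, 28 with a term for the library set, and 25 to 27 when each library was left out in turn. With total library size 15 members were called lower, 2 higher and 0 peroxins, against 26, 1 and 1 with TMM, and the share of all genes called in that fit was not computed. With at least 10 counts in every library 0 members were called higher, since Acot5 was not tested. With no minimum fold change 2 members were called higher and 4 peroxins lower, and when tested against 1 on the log2 scale, 0 peroxins were. With the mitochondrial set limited to its core, the median differences were -1.04 for the peroxisomal enzymes and -0.24 for the peroxins. Leaving out each library gave 1 to 1 members called higher, 12 to 13 mitochondrial members, 6 to 6 peroxisomal enzymes, 1 to 1 peroxins and 30 to 32 pathway genes called lower, with median differences of -0.34 to -0.10 and 0.49 to 0.75. Etfbkmt changed sign with total library size (0.37) and without cisplatin 1 and 3 (0.01), and Hadha with total library size (0.25). Of 530 comparisons of a named member with an alternative, 498 kept direction and side of the threshold, 25 lost and 4 gained the call and 3 changed sign. The causes were not tested.

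Replicate numbers 1 and 3 occur in both groups. All 4 libraries concerned are of the first library set. Deviations of same-numbered libraries correlated across genes at 0.249 and 0.279, and pairs of that set with different numbers at 0.148 to 0.355. The labels describe no pairing, and the libraries were treated as unpaired. So few pairs of a single library set cannot settle whether the numbers mean more. With the replicate number as a block, 26 members were called lower and 1 higher, with 11 mitochondrial members, 7 peroxisomal enzymes, 1 peroxin and 33 pathway genes lower and median differences of -0.34 and 0.84, and Cpt1a (-0.91) and Acsl1 (-0.54) were no longer called. That fit compares control 1 and 3 with cisplatin 1 and 3. The 8 libraries set the precision, and a member near 3 counts in the controls, such as Acot5, has no well-determined fold change.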
